A study of Mus musculus with 12 samples.

Results

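The transcripts described here encode the receptors for glutamate and GABA, the main excitatory and inhibitory transmitters of the brain. Members were chosen by gene symbol alone: AMPA (Gria), kainate (Grik), NMDA (Grin), delta (Grid) and metabotropic (Grm) glutamate receptors, and GABA-A (Gabr) and GABA-B (Gabbr) receptors. The rule took 46 of 54532 annotated genes, 25 for glutamate and 21 for GABA, and listed 4 kainate receptor genes (Grik1, Grik2, Grik4 and Grik5). The rule itself uses no expression value, but it was set with earlier results of these data known. RNA came from the striatum of C57BL/6J mice 7 or 14 days after ischemic stroke. At each time there were wild-type (WT) mice, mice made deficient in Cgas (labelled cGAS-KO) and mice made deficient in Sting (labelled STING-KO), the deficient lines by CRISPR-Cas9. Each of the 6 groups of time and label held 2 polyA+ libraries, 12 in all. All 6 groups had a stroke, so no uninjured tissue serves as a reference, and the labels used here give neither the age nor the sex of the mice. Nor do they tie libraries to individual mice, so the p-values below rest on the spread between 2 libraries of a group, which may be technical.

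Ionotropic receptors are ion channels assembled from several subunits, and metabotropic receptors act through G proteins. AMPA receptors carry fast excitation, NMDA receptors admit calcium and are central to plasticity and to excitotoxic injury, and GABA-A receptors are chloride channels whose alpha, beta and gamma or delta subunits set their kinetics and location. The striatum is made up mostly of GABAergic projection neurons that receive glutamate from cortex and thalamus. Striatal projection neurons are known for abundant Grm5, Gabra4 and Gabrd transcripts, while Gabra5 is best known from the hippocampus and Grm2 from cortical, thalamic and hippocampal neurons. Most of these receptors are neuronal, but astrocytes also carry some, such as Grm3.

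Library totals ran from 15956242 to 22126213 counts, and 3 counts equalled 0.133 to 0.195 CPM (reads counted for a gene, scaled to a common library size after TMM normalisation). The 7-day WT and the 14-day STING-KO libraries stood apart from the other 8 in microglia and macrophage markers, 14 in number, whose summed level was 326 and 278 CPM in 7-day WT, 440.1 and 1021 CPM in 14-day STING-KO and 2768 CPM or more elsewhere. The summed level of 15 striatal projection neuron markers was 8367 and 9480 CPM in 14-day STING-KO, above all other libraries. In 7-day WT it was 486 and 525 CPM, within the range of 7-day cGAS-KO (321 and 666) and STING-KO (334 and 679). That of 13 cortical and hippocampal excitatory neuron markers was 2812 and 3297 CPM in 7-day WT and 142 and 195 CPM in 14-day STING-KO. Of the comparisons below, 3 use neither group, and their 0, 0 and 23 calls among the receptor genes became 0, 0 and 25 when those 4 libraries were left out of the fit. Against the tissue label, the 7-day libraries of all 3 genotypes held little of the defining striatal receptor Drd1, at 1.84 to 12.9 CPM against 33.9 to 376 CPM at 14 days. At 14 days, Cgas had 4.09 and 6.15 CPM in cGAS-KO and 12.6 and 7.68 CPM in WT. Tmem173, which encodes STING, had 2.40 and 5.21 CPM in 14-day STING-KO and 22.3 and 20.8 CPM in 14-day WT. At 7 days the levels of both targeted genes went against the labels. Tmem173 had 20.9 and 23.8 CPM in the 7-day STING-KO libraries and 2.80 and 2.71 CPM in the 7-day WT libraries. Cgas had 5.55 and 5.66 CPM in 7-day cGAS-KO and 3.25 and 2.97 CPM in 7-day WT. Genotype names below are therefore labels of libraries, and small CRISPR-Cas9 lesions that leave a transcript in place would not show in gene counts.

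Receptor transcripts were abundant in 2 of the 6 groups. The sum over all 46 members was 6954 and 7544 CPM in 7-day WT and 6505 and 6704 CPM in 14-day STING-KO. The 7-day libraries labelled cGAS-KO had 1471 and 1944 CPM and those labelled STING-KO 1812 and 1740 CPM. Between these extremes lay 14-day WT with 2686 and 3182 CPM and 14-day cGAS-KO with 3065 and 3204 CPM. Glutamate and GABA receptors had the same order of groups: glutamate receptors summed to 4380 and 4805 CPM in 7-day WT and 863 and 1160 CPM in 7-day cGAS-KO, and GABA receptors to 2574 and 2739 CPM and 609 and 784 CPM. In bulk tissue, fewer cells of a type and less RNA per cell cannot be told apart, and this holds for every result below.

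**Figure D1:**
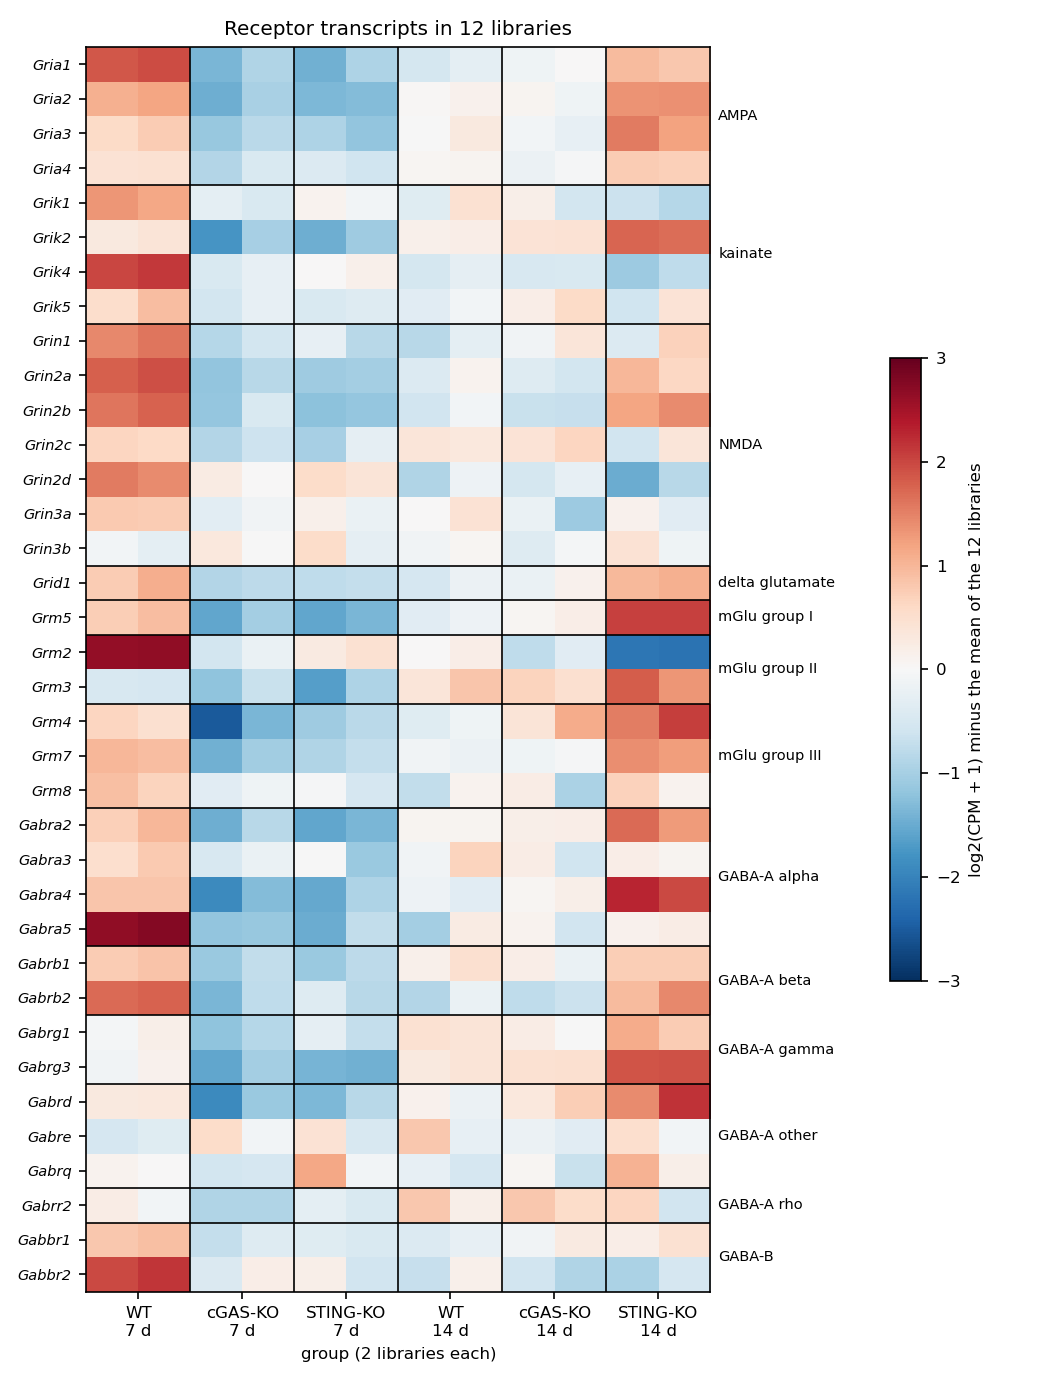
Heat map of 36 of the 41 tested receptor genes (rows, grouped by receptor class) in the 12 libraries (columns, 2 per group), as log2(CPM + 1) minus the gene's mean over the 12 libraries. Most rows are red in the 7-day WT and 14-day STING-KO columns and blue in the 7-day cGAS-KO and STING-KO columns, while Grm2 is reddest in 7-day WT and bluest in 14-day STING-KO.

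At 7 days most receptor genes were lower in both labelled knockouts than in WT. Of the 41 members that passed the filter on low counts, 37 fell and none rose in cGAS-KO (adjusted p below 0.05, edgeR), and 36 fell and none rose in STING-KO. Over all 19822 genes tested, 22.4% were called lower and 27.8% higher in cGAS-KO, and 22.6% lower and 26.3% higher in STING-KO. The members' median log2 change was -1.83 in cGAS-KO and -1.71 in STING-KO, where the medians of all genes were 0.04 and 0.03. These comparisons share the WT libraries, so their values are given side by side and not as independent observations. At 7 days the summed CPM of 30 pan-neuronal genes, of which 29 fell in each labelled knockout, was 23710 and 25450 in WT, 5483 and 7109 in cGAS-KO and 8347 and 6188 in STING-KO, while 14 microglia and macrophage markers summed to 326 and 278 CPM in WT against 9505 and 10840 in cGAS-KO and 11720 and 13050 CPM in STING-KO. Their part in the receptor result was not tested.

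At 14 days the direction was the opposite in STING-KO. Against 14-day WT, 22 members rose and 3 (Grm2, Grik1 and Grik4) fell, with a median log2 change of 0.89, while 16.5% of all genes were called higher and 17.4% lower with a median of -0.03. In cGAS-KO no member was called at 14 days (0 of 41 by edgeR and by DESeq2), and the median log2 change was 0.04. Of all 19822 genes, edgeR called 0.0303% in either direction, and DESeq2 called 52 genes higher and 93 lower. By edgeR, 5 members had an unadjusted p under 0.05, and the share of all genes at that level was not computed. All 15 striatal projection neuron markers rose in 14-day STING-KO and 10 of 13 cortical and hippocampal markers fell. The striatal markers summed to 1489 and 1232 CPM in 14-day WT, and the cortical and hippocampal markers to 511 and 920.1 CPM. All 14 microglia and macrophage markers (median log2 change -2.61) and 10 of 11 oligodendrocyte lineage markers (median -0.97) fell too. Of 30 pan-neuronal genes, 13 rose and 1 fell (median 0.62). The part of these markers in the receptor result was not tested.

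The labelled knockouts were also set against each other. At 7 days no member differed between cGAS-KO and STING-KO by edgeR, the median log2 change was -0.13, and edgeR called 0.161% of all genes. DESeq2 called 1 member, and of all 19822 genes it called 145 higher and 118 lower. By edgeR, 8 members had an unadjusted p under 0.05, and the share of all genes at that level was not computed. At 14 days 24 members were lower and 1, Grm2, was higher in cGAS-KO than in STING-KO, with a median log2 change of -1.04, where 17.7% of all genes were called lower and 18.2% higher.

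**Figure D2:**
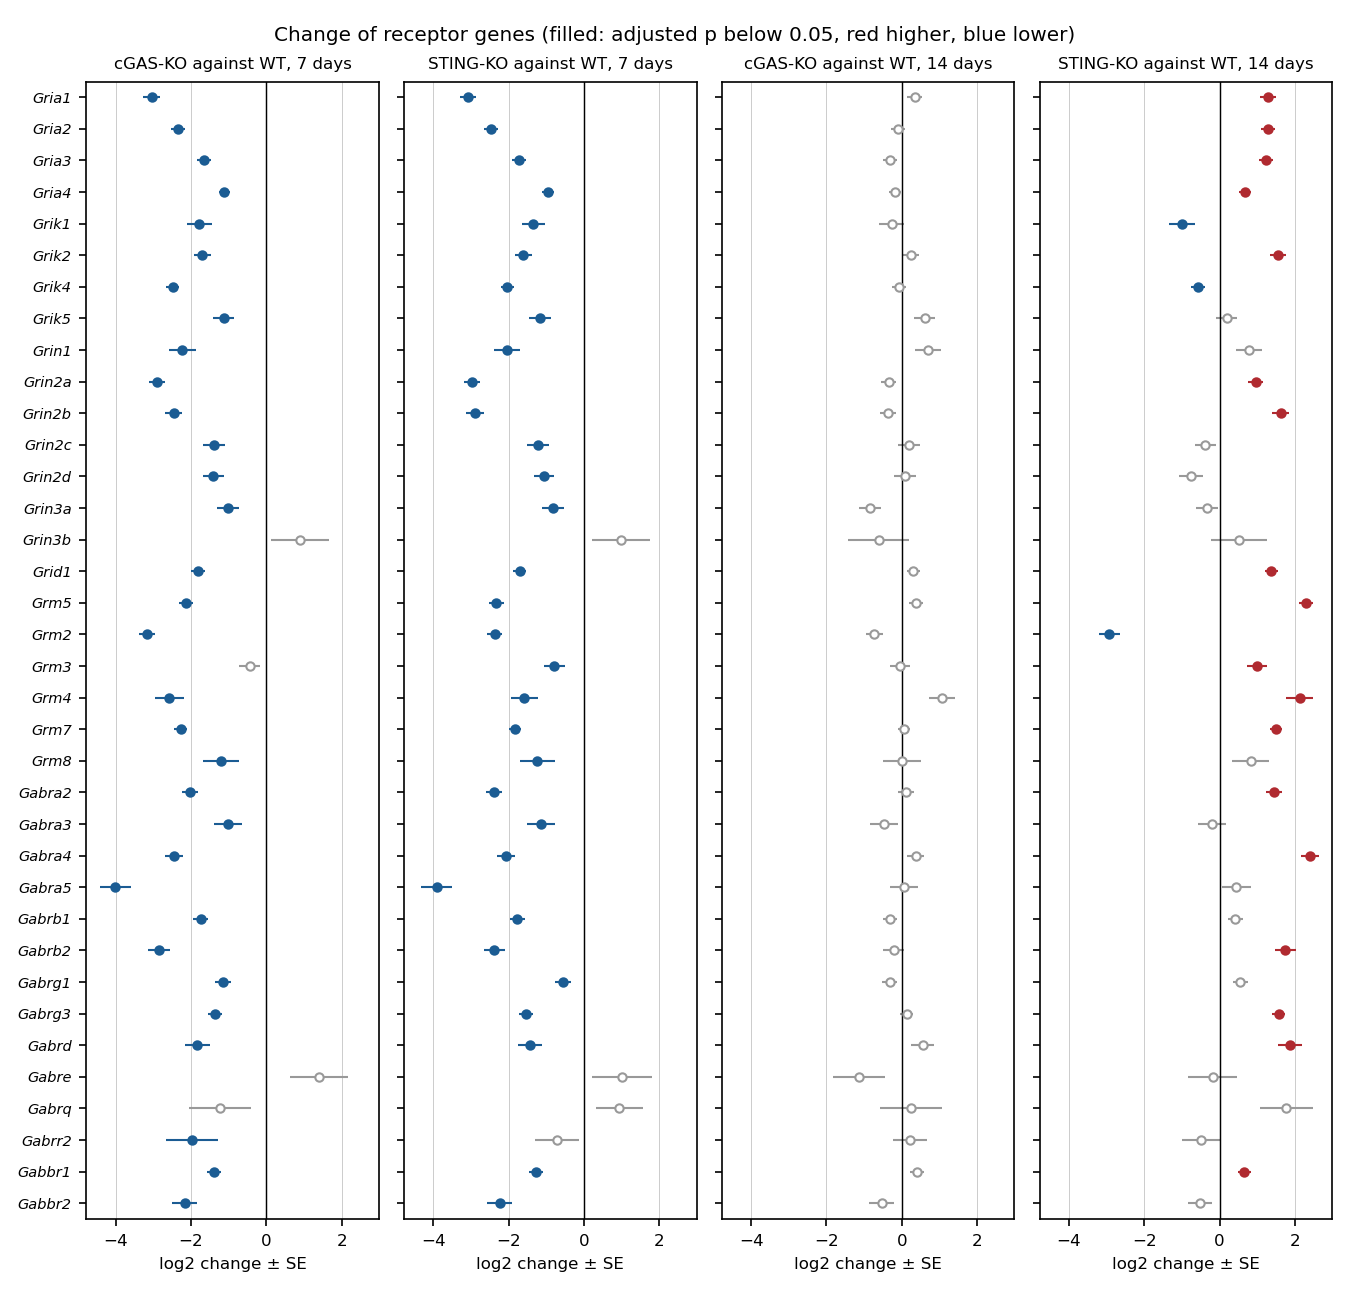
Log2 change of 36 of the 41 tested receptor genes against WT of the same day (points, with bars of 1 SE; x axis in log2 units), for cGAS-KO and STING-KO at 7 and 14 days. Filled points passed an adjusted p of 0.05 (blue lower, red higher): all lie left of 0 at 7 days, none is filled for cGAS-KO at 14 days, and for STING-KO at 14 days Grm2, Grik1 and Grik4 are the filled points left of 0.

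Sequence upstream of the start was available for 31 members (38 promoters, 250 bases before to 50 after the start; RefSeq, GRCm38.p6). The 250 bases before the start are shown for 3 members with different orders of the groups, picked after their values were seen: Grm2 (chr9:106656110-106656359, minus strand), highest in 7-day WT and lowest in 14-day STING-KO, Gabra5 (chr7:57510060-57510309, minus strand), highest in 7-day WT, and Gabra4 (chr5:71658309-71658558, minus strand), highest in 14-day STING-KO. Sequences run 5′ to 3′, with capitals where a searched motif occurs.
Grm2: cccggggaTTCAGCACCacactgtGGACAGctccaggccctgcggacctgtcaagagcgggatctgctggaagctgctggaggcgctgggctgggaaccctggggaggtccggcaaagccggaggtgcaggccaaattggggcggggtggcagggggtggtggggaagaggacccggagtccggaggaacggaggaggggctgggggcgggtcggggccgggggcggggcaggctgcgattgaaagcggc
Gabra5: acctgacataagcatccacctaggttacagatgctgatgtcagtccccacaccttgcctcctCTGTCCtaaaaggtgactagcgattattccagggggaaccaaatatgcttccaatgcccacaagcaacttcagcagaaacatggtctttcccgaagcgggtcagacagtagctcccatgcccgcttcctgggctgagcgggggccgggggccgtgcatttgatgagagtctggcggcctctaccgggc
Gabra4: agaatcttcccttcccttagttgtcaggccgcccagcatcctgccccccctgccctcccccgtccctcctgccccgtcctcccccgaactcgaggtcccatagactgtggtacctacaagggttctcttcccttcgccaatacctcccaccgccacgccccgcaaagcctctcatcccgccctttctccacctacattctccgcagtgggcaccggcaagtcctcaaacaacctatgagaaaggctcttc
Both strands were searched for TTCAGCACC and GGACAG, the left and right parts of the element bound by REST, a repressor of neuronal genes outside neurons, and for TATAAA, the core of the TATA box. TTCAGCACC was in 0.371% of all 32851 promoters and, among the members, in that of Grm2, at position -242 from the start. GGACAG was in 22.2% of all promoters and in 13 of the 38 member promoters, of 12 genes, among them Grm2 at -226 on the same strand and Gabra5 at -188 on the opposite strand, where it is shown as CTGTCC. Grm2 was thereby 1 of 23 promoters (0.07%) with both parts on 1 strand. TATAAA was in 13.6% of all promoters and in 4 of the members', of Gabra3, Gabrb2 and Grin3b. None of the 3 was within the 250 bases of Gabra4. The median number of CpG was 11.5 in member promoters and 7 in all promoters. These matches are descriptions of letters and not evidence of binding.

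All 4 AMPA receptor genes fell in both labelled knockouts at 7 days and rose in STING-KO at 14 days. Gria1 (ENSMUSG00000020524; chromosome 11, 57011387 to 57330244, plus strand), the subunit of hippocampal long-term potentiation and the AMPA gene with the highest level per exon length (53.7 CPM per kb, mean of the 6 groups), had at 7 days 857 and 926 CPM in WT, 90.7 and 125 in cGAS-KO and 85.8 and 125 in STING-KO. At 14 days Gria1 had 165 and 193 CPM in WT, 217 and 237 in cGAS-KO and 459 and 414 in STING-KO. The 7-day WT libraries were the highest of all, the 14-day STING-KO libraries came next, and the 7-day knockout libraries were lowest and overlapped each other. Its log2 change against WT was -3.04 ± 0.22 in cGAS-KO and -3.08 ± 0.22 in STING-KO at 7 days (adjusted p = 8.43e-07 and 7.27e-07), and 1.29 ± 0.21 in STING-KO at 14 days (adjusted p = 0.00071). Gria2, whose RNA-edited subunit keeps calcium out of the channel, had at 7 days 901 and 976 CPM in WT, 153 and 218 in cGAS-KO and 167 and 172 in STING-KO. Its level at 14 days was 438 and 464 CPM in WT, 454 and 389 in cGAS-KO and 1097 and 1104 in STING-KO. Unlike Gria1, Gria2 was highest in the 14-day STING-KO libraries, above 7-day WT. The log2 change of Gria2 was -2.34 ± 0.19 and -2.47 ± 0.19 at 7 days in cGAS-KO and STING-KO, and 1.29 ± 0.18 at 14 days in STING-KO (adjusted p = 1.6e-06, 1.1e-06 and 0.000324). The other members of the class, Gria3 and Gria4, changed less at 7 days: their log2 changes in cGAS-KO were -1.65 ± 0.19 and -1.11 ± 0.16. Both stood higher in 14-day STING-KO than in any other library, at 398 and 311 CPM for Gria3 and 97.4 and 95.5 CPM for Gria4.

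Kainate receptors, which tune transmitter release and slow excitation, split at 14 days. All 4 listed genes fell in both labelled knockouts at 7 days, but in 14-day STING-KO Grik2 rose, Grik1 and Grik4 fell and Grik5 did not pass. Grik2 (ENSMUSG00000056073; chromosome 10, 49094833 to 49788766, minus strand), a subunit that can form channels by itself, had at 7 days 97.7 and 104 CPM in WT, 22.6 and 39.1 in cGAS-KO and 28.3 and 37.5 in STING-KO. At 14 days Grik2 had 89.1 and 91.3 CPM in WT, 106 and 107 in cGAS-KO and 270.1 and 257 in STING-KO. The 14-day STING-KO libraries were clear of all others, the 14-day WT and cGAS-KO libraries lay near 7-day WT, and the 7-day knockouts were lowest. Its log2 change in STING-KO was -1.61 ± 0.22 at 7 days and 1.55 ± 0.21 at 14 days (adjusted p = 8.59e-05 and 0.00032). Grik4, a high-affinity subunit that needs a partner such as Grik2 and is prominent in hippocampal field CA3, had at 7 days 69.1 and 74.7 CPM in WT, 11.8 and 13.8 in cGAS-KO and 16.5 and 18.5 in STING-KO. At 14 days Grik4 had 11.1 and 13.5 CPM in WT, 11.61 and 11.73 in cGAS-KO and 7.26 and 9.38 in STING-KO. The 7-day WT libraries held it far above the rest, and the 14-day STING-KO libraries were the lowest. The log2 change of Grik4 was -2.49 ± 0.18 in cGAS-KO at 7 days (adjusted p = 9.66e-07) and -0.57 ± 0.19 in STING-KO at 14 days (adjusted p = 0.0402). Grik1, a subunit found in interneurons, had 20.2 and 17.9 CPM in 7-day WT and 3.65 to 10.5 CPM in the other 10 libraries. The 7-day WT libraries stood clear above the rest, and the 14-day STING-KO libraries were the lowest, just under 14-day cGAS-KO library 2. In the 14-day groups Grik1 had 5.61 and 10.5 CPM in WT, 8.59 and 4.78 in cGAS-KO and 4.44 and 3.65 in STING-KO. Its fall in 14-day STING-KO (log2 change -0.998 ± 0.36, adjusted p = 0.0481) was lost without 14-day STING-KO library 1 or 2 or 14-day WT library 2 (adjusted p = 0.112, 0.158 and 0.39). The fall of Grik4 there was lost without STING-KO library 1 or WT library 1 or 2 (adjusted p = 0.227, 0.0506 and 0.209). Grik5, the other high-affinity subunit and the highest of the class per length at 32.6 CPM per kb, had at 7 days 228 and 303 CPM in WT, 108 and 134 in cGAS-KO and 115 and 121 in STING-KO. Its 14-day values were 126 and 150.4 CPM in WT, 183 and 237 in cGAS-KO and 105 and 209.5 in STING-KO. Grik5 had a log2 change of -1.13 ± 0.28 in cGAS-KO and -1.17 ± 0.28 in STING-KO at 7 days, with adjusted p = 0.00587 and 0.00502. Neither call held without 7-day WT library 2 (adjusted p = 0.0566 and 0.0502), and that in cGAS-KO was also lost without cGAS-KO library 1 (adjusted p = 0.0524).

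NMDA receptors combine the obligatory Grin1 subunit with Grin2 and Grin3 subunits. Of the 7 genes, all but Grin3b fell in both labelled knockouts at 7 days, and Grin2a and Grin2b rose in STING-KO at 14 days. Grin1 had at 7 days 420.3 and 471 CPM in WT, 84.6 and 105 in cGAS-KO and 130.3 and 86.4 in STING-KO, and at 14 days 85.7 and 125 CPM in WT, 143 and 199 in cGAS-KO and 115 and 248.9 in STING-KO. Levels were highest in 7-day WT, and the 14-day STING-KO libraries differed from each other by more than the 14-day WT and cGAS-KO libraries did. The log2 change of Grin1 was -2.23 ± 0.35 and -2.04 ± 0.35 in cGAS-KO and STING-KO at 7 days (adjusted p = 0.00031 and 0.000571), and in STING-KO at 14 days it was 0.79 ± 0.34 (adjusted p = 0.0982; 0.014 without STING-KO library 1). An antisense gene, Grin1os, covers 13.47% of the exon bases of Grin1, and their reads cannot be told apart where counting ignored strand. Grin2b (ENSMUSG00000030209; chromosome 6, 135713233 to 136173511, minus strand), a subunit with slow kinetics that dominates early in life and persists in the forebrain, had at 7 days 500.3 and 561 CPM in WT, 73.4 and 119 in cGAS-KO and 69.3 and 73.1 in STING-KO. At 14 days Grin2b had 109 and 156 CPM in WT, 103 and 102 in cGAS-KO and 376 and 443 in STING-KO. Both the 7-day WT and the 14-day STING-KO libraries lay above all others. Grin2b had a log2 change of -2.90 ± 0.24 at 7 days and 1.63 ± 0.23 at 14 days in STING-KO (adjusted p = 2e-06 and 0.000332). Grin2a, the faster subunit of mature synapses, had at 7 days 217 and 239 CPM in WT, 26.5 and 34.1 in cGAS-KO and 28.7 and 29.6 in STING-KO. At 14 days Grin2a had 46.2 and 66.3 CPM in WT, 46.5 and 42.0 in cGAS-KO and 124 and 94.9 in STING-KO. It too was highest in 7-day WT and next highest in 14-day STING-KO, with log2 changes in STING-KO of -2.97 ± 0.21 and 0.96 ± 0.20 at 7 and 14 days (adjusted p = 6.87e-07 and 0.00316).

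The remaining NMDA genes had other orders of groups. Grin2d, a subunit of interneurons and of the diencephalon, had at 7 days 38.7 and 34.9 CPM in WT, 15.1 and 12.7 in cGAS-KO and 18.7 and 16.6 in STING-KO. At 14 days Grin2d had 6.19 and 11.2 CPM in WT, 8.32 and 10.4 in cGAS-KO and 3.84 and 6.58 in STING-KO. From 7 to 14 days it fell in WT (log2 change -2.07 ± 0.28) and in STING-KO (-1.76 ± 0.31), with adjusted p = 0.00015 and 0.000431. Grin2c, known from cerebellar granule cells and astrocytes, had 102 and 97.8 CPM in 7-day WT, 43.0 to 101 CPM in the 14-day groups and 32.1 to 53.8 CPM in the 7-day knockouts. Its log2 change at 7 days was -1.38 ± 0.29 in cGAS-KO and -1.21 ± 0.29 in STING-KO. Grin3a, which lowers calcium entry, had 39.3 and 39.2 CPM in 7-day WT and 10.03 to 30.7 CPM elsewhere, and its call in 7-day STING-KO (adjusted p = 0.0306) was lost without 7-day WT library 1 or 2 or STING-KO library 2 (adjusted p = 0.0855, 0.101 and 0.157). In cGAS-KO (adjusted p = 0.0111) it was lost without cGAS-KO library 1 (adjusted p = 0.0677). Grin3b, a subunit best known from motor neurons, stayed at 0.223 to 1.32 CPM, and the gene Tmem259 overlaps 32.13% of its exon bases on the opposite strand, so reads of the pair cannot be told apart where counting ignored strand.

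Delta receptors are synapse organisers that bind the cerebellin proteins. Grid1 had at 7 days 65.9 and 81.8 CPM in WT, 20.1 and 21.9 in cGAS-KO and 22.1 and 23.0 in STING-KO. At 14 days Grid1 had 26.6 and 33.9 CPM in WT, 33.0 and 41.6 in cGAS-KO and 75.3 and 81.4 in STING-KO. The 7-day WT and 14-day STING-KO libraries overlapped and lay above all others. Grid1 had a log2 change of -1.81 ± 0.18 in 7-day cGAS-KO and 1.37 ± 0.18 in 14-day STING-KO (adjusted p = 7.4e-06 and 0.000213).

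Group I metabotropic glutamate receptors act through Gq proteins and phospholipase C. Grm5 (ENSMUSG00000049583; chromosome 7, 87584168 to 88134907, plus strand), the group I receptor of striatal projection neurons, had at 7 days 229.8 and 259 CPM in WT, 45.2 and 66.2 in cGAS-KO and 45.3 and 52.1 in STING-KO. At 14 days Grm5 had 108 and 122 CPM in WT, 142 and 158 in cGAS-KO and 566 and 565 in STING-KO. The 14-day STING-KO libraries exceeded the 7-day WT libraries, and the 7-day knockouts were lowest. The log2 change of Grm5 was -2.13 ± 0.19 and -2.33 ± 0.19 in cGAS-KO and STING-KO at 7 days (adjusted p = 3.02e-06 and 1.73e-06) and 2.30 ± 0.19 in STING-KO at 14 days (adjusted p = 2.53e-05).

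Group II receptors, Grm2 and Grm3, lower transmitter release through Gi/o proteins, and in 14-day STING-KO Grm2 fell and Grm3 rose. Grm2 (ENSMUSG00000023192; chromosome 9, 106643095 to 106656082, minus strand), a presynaptic autoreceptor whose upstream sequence is shown above, had at 7 days 66.8 and 68.5 CPM in WT, 6.46 and 8.49 in cGAS-KO and 12.1 and 14.0 in STING-KO. At 14 days Grm2 had 9.93 and 11.5 CPM in WT, 5.38 and 7.62 in cGAS-KO and 1.44 and 1.37 in STING-KO. The 7-day WT libraries were the highest and the 14-day STING-KO libraries, at 24 and 21 counts, the lowest of all 12, with no overlap between 7-day WT or 14-day STING-KO and any other group. Against WT its log2 change was -3.17 ± 0.21 in cGAS-KO and -2.37 ± 0.20 in STING-KO at 7 days, and -2.93 ± 0.28 in STING-KO at 14 days (adjusted p = 6.02e-07, 2.62e-06 and 4.64e-05). Grm2 was the member that stood higher in cGAS-KO than in STING-KO at 14 days (log2 change 2.20 ± 0.28, adjusted p = 0.000301), and in 14-day cGAS-KO against WT it had -0.73 ± 0.22 (adjusted p = 0.279). Grm3 (ENSMUSG00000003974; chromosome 5, 9485541 to 9725170, minus strand), which neurons and astrocytes both carry, had at 7 days 25.6 and 25.5 CPM in WT, 15.1 and 22.4 in cGAS-KO and 10.8 and 18.6 in STING-KO. At 14 days Grm3 had 46.9 and 65.2 CPM in WT, 58.2 and 50.9 in cGAS-KO and 130.3 and 93.2 in STING-KO. Every 14-day library lay above every 7-day library. From 7 to 14 days Grm3 rose in WT (1.13 ± 0.27), in cGAS-KO (1.53 ± 0.28) and in STING-KO (2.92 ± 0.29) on the log2 scale, with adjusted p = 0.00586, 0.00203 and 8.68e-06. The rise in WT was lost without 14-day WT library 2 (adjusted p = 0.0628). Its log2 change against WT was -0.44 ± 0.28 in cGAS-KO and -0.79 ± 0.28 in STING-KO at 7 days, and 0.996 ± 0.27 in STING-KO at 14 days (adjusted p = 0.215, 0.0369 and 0.0138). The 7-day STING-KO call was lost without STING-KO library 1 or either WT library (adjusted p = 0.213, 0.0971 and 0.115), and the 14-day one without STING-KO library 1 or WT library 1 (0.108 and 0.121). Astrocyte markers, 10 in number, summed to 4419 and 4530 CPM in 7-day WT and 11840 and 8813 CPM in 14-day WT, with 7 higher and 1 lower. Over the same time in STING-KO, where Grm3 rose most, 1 of them rose and 5 fell (median log2 change -0.52), and in 14-day STING-KO against WT none rose and 6 fell (median -0.76). Of all genes, 24.1% were called higher and 19.7% lower over time in WT, and 27.4% higher and 29.5% lower in STING-KO. In 14-day STING-KO against WT, 16.5% were called higher and 17.4% lower. The part of the astrocyte markers in the Grm3 result was not tested.

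Group III receptors also couple to Gi/o proteins, and most of them sit at presynaptic active zones. Grm7, the highest of them per length at 6.59 CPM per kb, had at 7 days 64.5 and 61.1 CPM in WT, 11.1 and 14.8 in cGAS-KO and 16.5 and 18.8 in STING-KO. At 14 days Grm7 had 29.2 and 27.99 CPM in WT, 28.9 and 30.8 in cGAS-KO and 85.3 and 76.5 in STING-KO. It was highest in 14-day STING-KO, then in 7-day WT, with log2 changes of -2.27 ± 0.17 and -1.83 ± 0.16 at 7 days and 1.5 ± 0.16 in STING-KO at 14 days (adjusted p = 1e-06, 3.51e-06 and 7.61e-05). Grm4, found on corticostriatal and striatopallidal endings, had at 7 days 35.6 and 31.7 CPM in WT, 3.08 and 8.03 in cGAS-KO and 10.04 and 12.3 in STING-KO. At 14 days Grm4 had 17.1 and 20.2 CPM in WT, 29.2 and 49.4 in cGAS-KO and 66.2 and 97.3 in STING-KO. Its lowest values were in 7-day cGAS-KO and its highest in 14-day STING-KO, and 14-day cGAS-KO overlapped 7-day WT. The log2 change of Grm4 was -2.58 ± 0.38 in 7-day cGAS-KO (adjusted p = 0.000214), 2.13 ± 0.35 in 14-day STING-KO (0.00106) and 1.07 ± 0.35 in 14-day cGAS-KO (0.319). Grm8 stayed at 1.66 to 8.58 CPM, and its falls at 7 days, with adjusted p = 0.049 in cGAS-KO and 0.0449 in STING-KO, were lost without any 1 library of the groups compared (adjusted p from 0.0948 to 0.172 and from 0.0605 to 0.207). Grm6, the receptor of retinal ON bipolar cells, had at most 4 counts per library and was not tested.

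**Figure D3:**
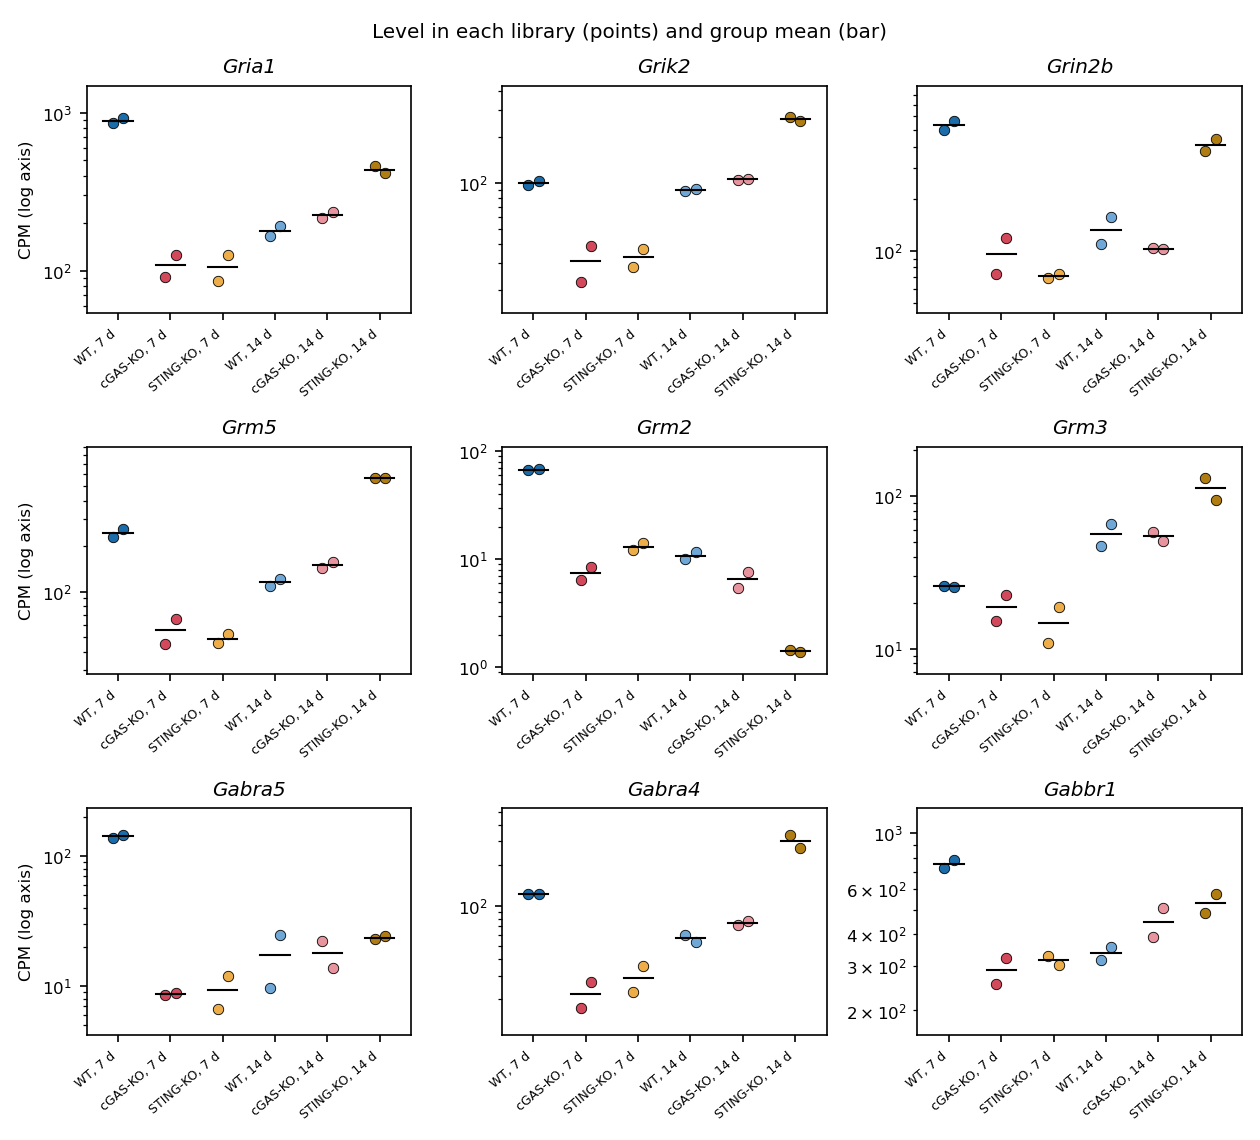
CPM of 9 receptor genes (1 panel each, log axis) in the 12 libraries, as points with a bar at the mean of the 2 libraries of each group. Gria1, Grm2 and Gabra5 peak in 7-day WT, Grm5, Grm3, Grik2 and Gabra4 in 14-day STING-KO, and Grm2 has its lowest points in 14-day STING-KO.

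The alpha subunits set the pharmacology and site of GABA-A receptors. Gabra2, Gabra3, Gabra4 and Gabra5 fell in both labelled knockouts at 7 days, and Gabra2 and Gabra4 rose in 14-day STING-KO. Gabra4 (ENSMUSG00000029211; chromosome 5, 71569749 to 71658308, minus strand), the alpha subunit of extrasynaptic receptors in striatum and thalamus, had at 7 days 122 and 122 CPM in WT, 17.3 and 27.0 in cGAS-KO and 22.6 and 35.5 in STING-KO. At 14 days Gabra4 had 60.8 and 53.3 CPM in WT, 71.2 and 76.8 in cGAS-KO and 332 and 269 in STING-KO. The 14-day STING-KO libraries were above 7-day WT, which was above all others. Its log2 change was -2.46 ± 0.24 and -2.07 ± 0.24 at 7 days in cGAS-KO and STING-KO (adjusted p = 7.08e-06 and 2.39e-05) and 2.40 ± 0.24 in STING-KO at 14 days (adjusted p = 5.38e-05), the largest log2 rise of any member there. Gabra2, a synaptic subunit of the forebrain, had at 7 days 88.6 and 108 CPM in WT, 18.9 and 29.5 in cGAS-KO and 17.4 and 20.1 in STING-KO. At 14 days Gabra2 had 56.4 and 56.4 CPM in WT, 60.2 and 61.5 in cGAS-KO and 176 and 131 in STING-KO. The 14-day STING-KO libraries were above 7-day WT here too, and the 7-day knockouts were lowest. Gabra2 had a log2 change of -2.39 ± 0.22 at 7 days and 1.44 ± 0.21 at 14 days in STING-KO (adjusted p = 4.49e-06 and 0.000403).

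Gabra5 (ENSMUSG00000055078; chromosome 7, 57407672 to 57510059, minus strand), the alpha subunit of tonic inhibition in the hippocampus, had the largest 7-day fall of all members. Its level at 7 days was 137 and 146 CPM in WT, 8.63 and 8.90 in cGAS-KO and 6.71 and 12.1 in STING-KO. At 14 days Gabra5 had 9.70 and 24.9 CPM in WT, 22.4 and 13.7 in cGAS-KO and 22.9 and 24.4 in STING-KO. The 7-day WT libraries lay above all other libraries, and the 14-day groups overlapped. The log2 change was -4.01 ± 0.41 in cGAS-KO and -3.91 ± 0.41 in STING-KO at 7 days (adjusted p = 1.46e-05 and 1.77e-05), -3.03 ± 0.39 from 7 to 14 days in WT (adjusted p = 0.000123) and 0.45 ± 0.38 in STING-KO at 14 days (adjusted p = 0.394). Without 14-day WT library 2 that last value was 1.27 and passed (adjusted p = 0.0244), and without library 1 it was -0.085. Gabra3, an alpha subunit of monoaminergic and interneuron cells, had 51.4 and 62.9 CPM in 7-day WT and 16.1 to 57.6 CPM elsewhere, with overlap. Its fall in 7-day cGAS-KO (adjusted p = 0.0435) was lost without any 1 library of the groups compared (0.0737 to 0.191), and that in STING-KO (adjusted p = 0.027) without WT library 2 (0.137) or STING-KO library 2 (0.172). Gabra6, the cerebellar granule cell subunit, had at most 10 counts per library and was not tested.

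Beta subunits are needed for a functional GABA-A receptor and form part of the GABA site. Gabrb1 and Gabrb2 fell in both labelled knockouts at 7 days, and Gabrb2 rose in 14-day STING-KO. Gabrb2, a subunit of synaptic receptors across the brain, had at 7 days 100.3 and 106 CPM in WT, 11.2 and 17.5 in cGAS-KO and 22.9 and 16.6 in STING-KO. At 14 days Gabrb2 had 16.1 and 26.4 CPM in WT, 17.6 and 19.1 in cGAS-KO and 59.3 and 83.7 in STING-KO. Libraries of 7-day WT stood above those of 14-day STING-KO, which stood above all others. The log2 change of Gabrb2 was -2.84 ± 0.29 in 7-day cGAS-KO, -2.39 ± 0.28 in 7-day STING-KO and 1.75 ± 0.27 in 14-day STING-KO (adjusted p = 9.67e-06, 3.2e-05 and 0.000697). Gabrb1 had 158 and 171 CPM in 7-day WT and 157 and 157 CPM in 14-day STING-KO, and its log2 change was -1.74 ± 0.19 in cGAS-KO and -1.77 ± 0.19 in STING-KO at 7 days.

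The gamma subunits anchor GABA-A receptors at synapses and make the benzodiazepine site. Gabrg3, a minor gamma subunit, had at 7 days 22.4 and 26.8 CPM in WT, 7.66 and 11.4 in cGAS-KO and 8.604 and 8.31 in STING-KO. At 14 days Gabrg3 had 30.3 and 32.0 CPM in WT, 34.0 and 34.4 in cGAS-KO and 92.2 and 93.7 in STING-KO. All 14-day libraries lay above the 7-day libraries. From 7 to 14 days its log2 change was 1.84 ± 0.19 in cGAS-KO and 3.46 ± 0.19 in STING-KO (adjusted p = 6.81e-05 and 2.2e-07) and 0.34 ± 0.18 in WT (adjusted p = 0.14). Gabrg1, which astrocytes also carry, ranged from 9.41 to 12.3 CPM in 7-day cGAS-KO to 40.1 to 50.9 CPM in 14-day STING-KO. It fell at 7 days in cGAS-KO (log2 change -1.15 ± 0.22) and in STING-KO (-0.57 ± 0.21), the second not without WT library 1 or 2 or STING-KO library 2 (adjusted p = 0.0519, 0.236 and 0.241).

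Gabrd, the delta subunit of extrasynaptic receptors that carry tonic inhibition, often beside Gabra4 in the striatum, had at 7 days 50.5 and 51.5 CPM in WT, 10.1 and 18.4 in cGAS-KO and 15.4 and 22.4 in STING-KO. At 14 days Gabrd had 45.0 and 36.1 CPM in WT, 50.9 and 68.7 in cGAS-KO and 110.1 and 186 in STING-KO. The 14-day STING-KO libraries were the highest and the 7-day knockouts the lowest. Its log2 change was -1.83 ± 0.32, -1.43 ± 0.32 and 1.87 ± 0.31 in 7-day cGAS-KO, 7-day STING-KO and 14-day STING-KO (adjusted p = 0.000699, 0.00317 and 0.0011). Gabrq, the theta subunit of monoaminergic and hypothalamic neurons, had at 7 days 1.46 and 1.28 CPM in WT, 0.543 and 0.617 in cGAS-KO and 4.13 and 1.17 in STING-KO. At 14 days Gabrq had 0.935 and 0.604 CPM in WT, 1.38 and 0.426 in cGAS-KO and 3.66 and 1.56 in STING-KO. Its values overlapped between groups, and it passed in none of the 9 comparisons of groups. Gabre, the epsilon subunit, stayed at 0.505 to 2.75 CPM and passed in none either. Gabrp, the pi subunit of epithelia, had 0 counts in all 12 libraries, which allows up to 0.133 to 0.195 CPM per library.

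The rho subunits form the GABA-A receptors first described in retina. Gabrr2 had at 7 days 2.19 and 1.58 CPM in WT, 0.483 and 0.463 in cGAS-KO and 1.26 and 1.01 in STING-KO. At 14 days Gabrr2 had 3.86 and 2.08 CPM in WT, 3.83 and 3.03 in cGAS-KO and 3.30 and 0.847 in STING-KO. The 7-day cGAS-KO libraries held the lowest levels. Its log2 change against WT there was -1.98 ± 0.70 (adjusted p = 0.0329), a call lost without any 1 library of the groups compared (adjusted p from 0.0595 to 0.135), and from 7 to 14 days in cGAS-KO it was 2.84 ± 0.62 (adjusted p = 0.00557). Gabrr1, with 1 to 7 counts per library, and Gabrr3, with 0 to 14, were not tested.

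GABA-B receptors are Gi/o-coupled dimers of Gabbr1 and Gabbr2. Both genes fell in both labelled knockouts at 7 days. Gabbr1 (ENSMUSG00000024462; chromosome 17, 37045966 to 37075067, plus strand), which binds GABA, had the highest level per length of all members over the 6 groups, at 57.4 CPM per kb. At 7 days it had 731 and 785 CPM in WT, 255 and 322 in cGAS-KO and 327 and 303 in STING-KO. At 14 days Gabbr1 had 317 and 355 CPM in WT, 388 and 506 in cGAS-KO and 483 and 578 in STING-KO. Levels were highest in 7-day WT, and 14-day STING-KO overlapped 14-day cGAS-KO but not 14-day WT. Its log2 change was -1.39 ± 0.18 and -1.27 ± 0.18 at 7 days (adjusted p = 6.31e-05 and 0.000134) and 0.66 ± 0.18 in STING-KO at 14 days (adjusted p = 0.0152), the last lost without 14-day STING-KO library 2 (0.0716) or WT library 1 (0.107). Gabbr2, which couples to the G protein, had at 7 days 348 and 387 CPM in WT, 64.0 and 98.9 in cGAS-KO and 97.3 and 57.9 in STING-KO. At 14 days Gabbr2 had 53.0 and 96.9 CPM in WT, 57.8 and 45.8 in cGAS-KO and 44.1 and 60.6 in STING-KO. The 7-day WT libraries lay above all others, which overlapped. In WT its log2 change from 7 to 14 days was -2.29 ± 0.33 against -1.17 ± 0.18 for Gabbr1 (adjusted p = 0.00029 and 0.000346), and in 14-day STING-KO against WT it was -0.52 ± 0.33 (adjusted p = 0.246). The difference between the 2 genes was not tested.

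Over time, receptor transcripts went down in WT and up in both labelled knockouts. From 7 to 14 days 24 members fell and 2 rose in WT, among them Grm3, though not without 14-day WT library 2 (median log2 change -1.09), where 19.7% of all genes were called lower and 24.1% higher. In cGAS-KO 23 members rose and none fell (median 0.85), beside 13.4% of all genes higher and 17% lower. In STING-KO 26 rose and 3 (Grm2, Grik4 and Grin2d) fell (median 1.48), beside 27.4% higher and 29.5% lower. The WT falls were led by Gabra5 (-3.03 ± 0.39), Grm2 (-2.65 ± 0.21), Grik4 (-2.55 ± 0.18) and Gria1 (-2.32 ± 0.21) on the log2 scale. The STING-KO rises were led by Grm5 (3.54 ± 0.20), Gabrg3 (3.46 ± 0.19), Gabra4 (3.37 ± 0.25) and Gabra2 (3.03 ± 0.22). These leading genes were picked by size after their values were seen. In WT the list of striatal projection neuron markers went the other way, with 13 of 15 higher at 14 days and a median log2 change of 2.15, and all 14 microglia and macrophage markers rose as well (median 3.96). Moving with the receptors in WT, 26 of 30 pan-neuronal genes (median -1.48) and 8 of 13 cortical and hippocampal markers (median -2.07) fell. In cGAS-KO and STING-KO, 9 and 13 of the 14 microglia and macrophage markers fell over time, and 14 and 15 of the 15 striatal markers rose. Of the 30 pan-neuronal genes, 6 rose and 0 fell in cGAS-KO, and 17 rose and 1 fell in STING-KO. The part of these markers in the result was not tested.

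The knockout effect itself, the log2 change against WT, differed between the times. A higher effect here means a less negative or more positive change, not necessarily a larger one. In cGAS-KO, 37 members fell at 7 days and 0 were called at 14 days. The differences for cGAS-KO and STING-KO share the WT libraries of both times, and 7-day WT stood apart in cell markers. For cGAS-KO the effect was higher at 14 than at 7 days for 33 members and lower for none (median difference 1.94 on the log2 scale), while 15.7% of all genes had a higher and 21% a lower effect. For STING-KO it was higher for 31 and lower for none (median 2.56), beside 24.3% and 27.6% of all genes. Of the 36 members that fell in 7-day STING-KO, 21 rose in 14-day STING-KO. Of all genes, 22.6% were called lower in the first comparison and 16.5% higher in the second. The share of all genes with both calls was not computed, so the 21 cannot be set against it. Among those that did not pass for STING-KO were Grm2, Grik1 and Grin2d, whose log2 differences of effect were -0.55 ± 0.35, 0.35 ± 0.48 and 0.31 ± 0.42 (adjusted p = 0.208, 0.566 and 0.566).

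To describe receptors beside other neuronal transcripts, changes were also fitted relative to 30 pan-neuronal genes that include no receptor. On that scale the median log2 change of all genes moved to 2.04 for cGAS-KO and 1.76 for STING-KO at 7 days and to -0.63 for STING-KO at 14 days. The members' medians were near 0 at 7 days, at 0.14 and 0.04, where 0 stands for a change equal to the mean change of the pan-neuronal genes. Those genes did not change alike. On the CPM scale their log2 changes ran from -3.27 to -0.25 in 7-day cGAS-KO and from -2.53 to -0.74 in 7-day STING-KO. In 14-day STING-KO they ran from -1.59 to 1.70. Against WT at 7 days 10 members were higher and 6 lower in cGAS-KO (81.8% and 0.959% of all genes) and 8 higher and 8 lower in STING-KO (76.4% and 1.39%). Gabra5 fell beyond the pan-neuronal genes in both, with relative log2 changes of -2.01 ± 0.37 and -2.13 ± 0.37 (adjusted p = 1.06e-05 and 5.31e-06). Gria1 (-1.05 ± 0.29 and -1.29 ± 0.29), Grin2a (-0.91 ± 0.28 and -1.22 ± 0.28) and Gabrb2 also fell on this scale in both. Gria4, Grin3a, Grin3b, Grm3, Gabrg1 and Gabre were higher relative to pan-neuronal genes in both, with 1.54 ± 0.33 and 0.997 ± 0.34 for Grm3, although Gria4, Grin3a and Gabrg1 fell in both in CPM terms.

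At 14 days the relative scale kept part of the receptor rise in STING-KO. Against WT, 16 members were higher and 7 lower relative to pan-neuronal genes (3.65% and 31.1% of all genes), with a median of 0.29. The leading relative rises were those of Gabra4 (1.79 ± 0.31), Grm5 (1.70 ± 0.27) and Grm4 (1.53 ± 0.34), and Gabrd had 1.23 ± 0.33. Lower were Grm2 (-3.51 ± 0.47), Grik1, Grin2d, Grik4, Gabbr2 (-1.07 ± 0.27), Grin2c and Grin3a. Without 14-day STING-KO library 1 the number called fell from 23 to 13, without 14-day WT library 2 to 14, and with only the 4 libraries compared to 15. For STING-KO at 7 days it fell from 16 to 9 without 7-day WT library 2.

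Subunit make-up within a receptor class, given as the share of the class's summed CPM per kb of exon, differed between the groups as well. Gria1 made up 60.9% ± 0.163 (SD, n = 2) of AMPA transcripts in 7-day WT and 34.7 to 47.3% in every other library. Among the GluN2 genes, Grin2b had the highest share in 14-day STING-KO (48.6 and 43.8%) and Grin2c in the 7-day knockouts, 14-day WT and 14-day cGAS-KO (47.0 to 71.5%). These ranges of Grin2c did not overlap with 7-day WT (34.6 and 32.0%) or 14-day STING-KO (27.4 and 40.8%). Grm2 supplied 18.1 and 18.1% of metabotropic glutamate receptor transcripts in 7-day WT and 0.212 and 0.217% in 14-day STING-KO, and Grm5 39.9 and 42.8% there against 22.8 to 32.6% in the other libraries. Grm3 held 11.1 and 10.8% in 7-day WT and 20.5 to 45.2% elsewhere.

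GABA-A and kainate receptors showed the same contrast between the 2 receptor-rich groups. Gabra5 contributed 34.9 and 35.5% of alpha subunit transcripts in 7-day WT and 6.62 to 16.8% elsewhere. Gabra4 contributed 46.9 and 44.7% in 14-day STING-KO and 12.04 to 32.7% elsewhere. Gabra3 reached 15.4 to 29.6% in the 4 receptor-poor groups and 9.09 to 11.60% in the others. Grik2 made up 47.9 and 31.3% of the listed kainate transcripts in 14-day STING-KO and 6.69 to 19.9% in the rest, and Grik4 17.5 and 15.4% in 7-day WT against 2.86 and 2.54% in 14-day STING-KO. The shares are descriptions and were not tested. The part of the cell markers, which differed between the same groups, was not tested.

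**Figure D4:**
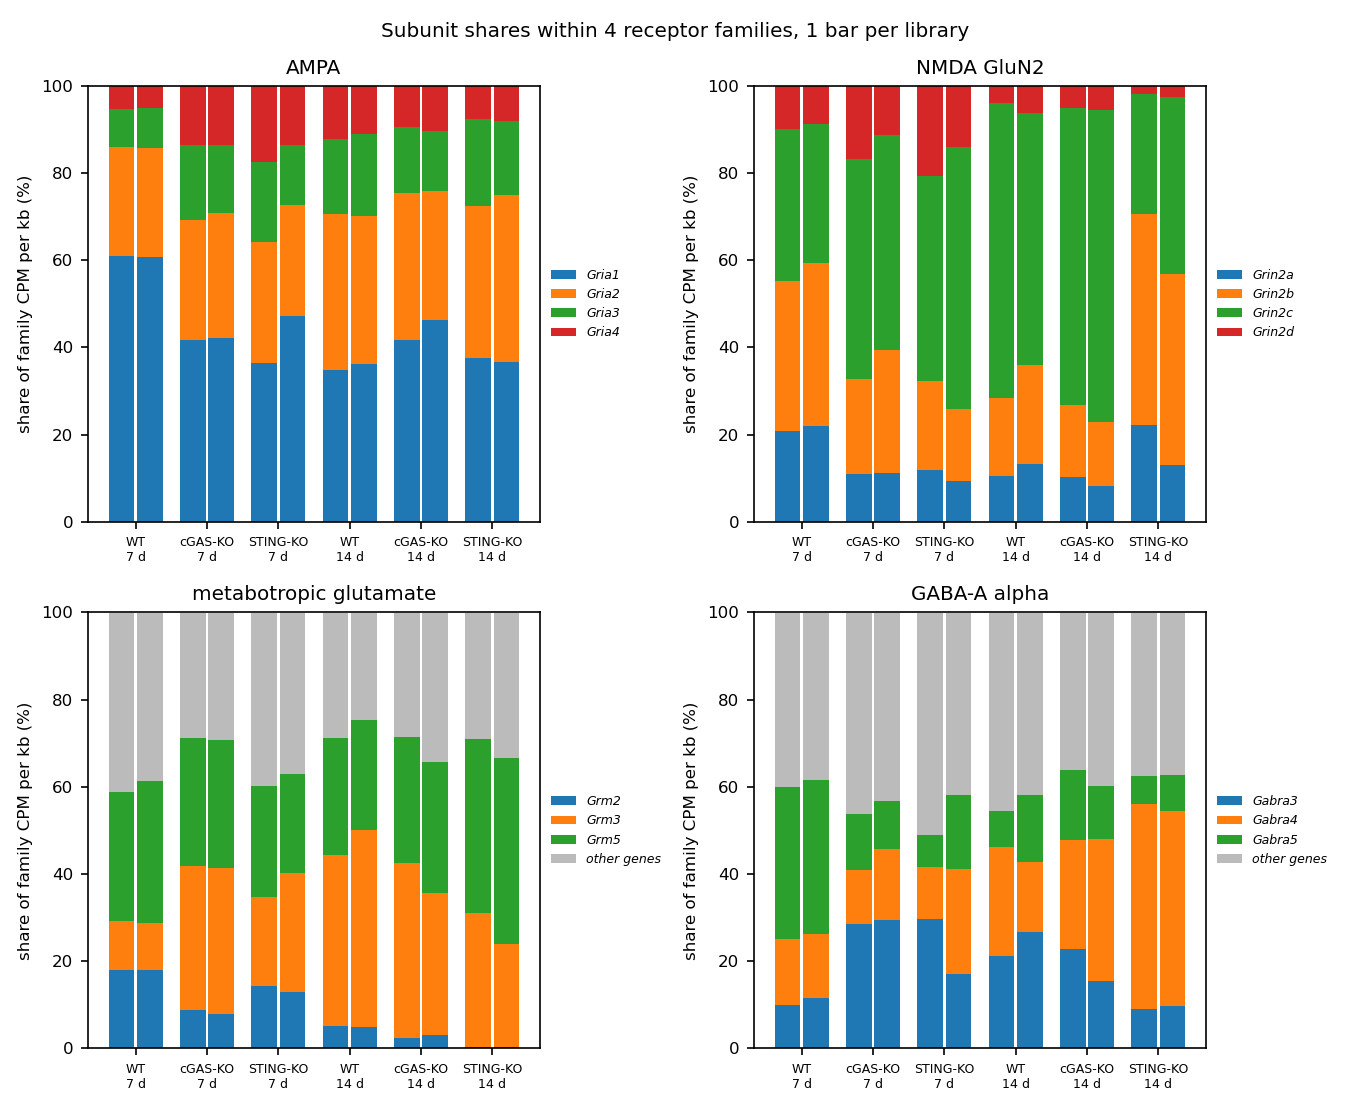
Stacked bars of the share (%) each gene has in the summed CPM per kb of its receptor class, 1 bar per library, for AMPA, GluN2, metabotropic glutamate and GABA-A alpha genes (grey: the sum of other genes of the class). Gria1 and Gabra5 take their largest shares in the 2 bars of 7-day WT, and Gabra4 and Grin2b in the 2 bars of 14-day STING-KO.

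Several GABA-A receptor genes lie in clusters, within which neighbours did not always change alike. On chromosome 5, Gabrg1, Gabra2, Gabra4 and Gabrb1 follow each other, and in 14-day STING-KO Gabra2 and Gabra4 rose while Gabrg1 (0.55 ± 0.20) and Gabrb1 (0.42 ± 0.19) did not pass (log2 change; adjusted p = 0.0566 and 0.102), Gabrg1 passing under DESeq2 (0.0477) and without STING-KO library 2 (0.0346). Gabra4 and Gabrb1 overlap head to head by 46 exon bases. On chromosome 7, Gabrg3 rose in 14-day STING-KO by a log2 change of 1.58 ± 0.18, while its neighbour Gabra5 had 0.45 ± 0.38 (adjusted p = 0.394). Gabre, Gabra3 and Gabrq on the X chromosome passed in no 14-day comparison, and the rho genes Gabrr2 and Gabrr1 neighbour each other on chromosome 4. Differences between neighbours were not tested.

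Most transcripts for partner proteins of the glutamate receptors also fell at 7 days, by lists drawn up with earlier results of these data known. Over all genes, 27.8% were higher and 22.4% lower in 7-day cGAS-KO, and 26.3% and 22.6% in 7-day STING-KO. In 14-day STING-KO these shares were 16.5% and 17.4%. Of 20 genes for auxiliary proteins of ionotropic glutamate receptors, 17 fell and 1 rose in 7-day cGAS-KO (median log2 change -1.79). In 7-day STING-KO 16 fell and 1 rose (median -2.07), and in 14-day STING-KO 10 rose and 4 fell (median 0.76). Cnih2, a cornichon that slows AMPA receptor closing, had log2 changes of -2.64 ± 0.23 and -2.98 ± 0.23 at 7 days (adjusted p = 2.84e-06 and 1.37e-06), and Neto2, a kainate receptor partner, had 2.06 ± 0.16 in 14-day STING-KO (adjusted p = 1.96e-05). Of 20 genes for postsynaptic scaffolds, 18 fell in 7-day cGAS-KO and 17 fell in 7-day STING-KO. In 14-day STING-KO 9 rose and 3 fell. Camk2b, a calcium-dependent kinase of the postsynaptic density, had log2 changes of -2.90 ± 0.24, -2.51 ± 0.23 and 1.62 ± 0.23 in those comparisons.

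GABAergic partners and transmitter handling were mixed. Of 15 tested genes for partners and scaffolds of GABA receptors, 10 fell and 3 rose at 7 days in each labelled knockout. In 14-day STING-KO 10 rose and 2 fell. Of all genes at 7 days, 22.4% fell and 27.8% rose in cGAS-KO, and 22.6% fell and 26.3% rose in STING-KO. Slitrk3, an adhesion protein of inhibitory synapses, had log2 changes of -2.52 ± 0.17 and -2.23 ± 0.17 at 7 days, while Gabarap, which also serves autophagy in all cells, rose by 1.68 ± 0.16 and 1.73 ± 0.16 at 7 days and had -1.09 ± 0.16 in 14-day STING-KO. Of 11 genes for transmitter synthesis and vesicle loading, 10 fell in each labelled knockout at 7 days and 6 rose and 3 fell in 14-day STING-KO. Gad1, which makes GABA, had log2 changes of -2.38 ± 0.20, -1.79 ± 0.19 and 2.03 ± 0.19 in the 3 comparisons. Of 11 uptake genes, 4 rose and 5 fell in 7-day cGAS-KO, 1 rose and 5 fell in 7-day STING-KO, and 1 rose and 2 fell in 14-day STING-KO, shares of 11 genes near the 16.5% and 17.4% of all genes given above. Slc1a1, a neuronal glutamate transporter, had log2 changes of -1.67 ± 0.25, -1.67 ± 0.25 and 1.34 ± 0.24. Chloride transporters set the direction of GABA-A currents: Slc12a5, the neuronal exporter, had log2 changes of -1.97 ± 0.25 and -1.70 ± 0.25 at 7 days and 1.39 ± 0.25 in 14-day STING-KO, and Slc12a2, the importer, 1.18 ± 0.18, 1.17 ± 0.18 and -0.24 ± 0.17 (adjusted p of the last 0.311).

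Per exon length the highest levels over the 6 groups were those of Gabbr1 (57.4), Gria1 (53.7), Gria2 (35.0) and Grik5 (32.6) in CPM per kb. By group, Gria1 led in 7-day WT with 148 CPM per kb and in 14-day STING-KO with 72.2, and Gabbr1 in the other 4 groups with 37.2 to 57.5. In 14-day STING-KO 70.8 for Gria2 and 68.3 for Gabbr1 followed, and Grm5 had 55.1. These levels rest on union exon lengths, and with the length of the longest annotated transcript Gria2 led in 14-day STING-KO and Grin1 (43.2) stood before Grik5 (41.5) over the 6 groups.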

How the data were processed

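Per the labels, polyA+ RNA was sequenced with paired reads. Per the submitters' processing notes, alignment used HISAT2 against mm10 and counting used featureCounts; versions, annotation and strand setting are not given in the sources used here. The authors deposited raw, unnormalised counts for each Ensembl ID. Symbols, coordinates and exon lengths come from GENCODE M21 (GRCm38). The members and all gene lists were chosen with earlier results of these data known.

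Genes passing filterByExpr (minimum count 10, minimum total 15; 19822 genes) were fitted with edgeR 4.0.16 in R 4.3.3: TMM scaling, all 12 libraries, 1 factor of 6 groups, 6 residual degrees of freedom, glmQLFTest, Benjamini-Hochberg adjustment over all genes tested, threshold 0.05. SE is that of the log2 change. Relative changes replaced library sizes by the geometric mean count of 30 pan-neuronal genes. Floors use 3 counts and cover counting error only. Named in full were, per receptor class, the gene with the highest level per length, the 2 with the smallest adjusted p, and genes called against most others; of each list, up to 4 genes with the smallest adjusted p; Gabra5 was added after its values were seen. Alternatives included DESeq2 1.42.0, other filters and scaling, a replicate block and leaving out each library, where a lone library was assumed to vary like the other groups. Counts within each group differed by more than sampling noise, so no library was counted as a duplicate. The test was tried on simulated counts. Some members are not reported by name here. Protein sequences were not used here. Figures were drawn with matplotlib 3.10.9.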

Additional observations from a re-analysis of the deposited data

Results flagged for a closer look

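The effect of the labelled knockouts on receptor transcripts differed between the 2 times by a test of the difference itself. A higher effect again means a less negative or more positive log2 change against WT, not necessarily a larger one. For cGAS-KO, 33 members had a higher effect at 14 than at 7 days and 0 a lower effect, beside 15.7% and 21% of all genes. With 0 members called for cGAS-KO at 14 days, the number called in opposite directions at the 2 times could only be 0. For STING-KO, 31 members had a higher effect at 14 days and 0 a lower effect, beside 24.3% and 27.6% of all genes. Of the members, 21 were called lower at 7 days and higher at 14 days. The share of all genes with both of these calls was not computed. The 7-day and 14-day comparisons share no library, but the differences for the 2 labelled knockouts share all WT libraries. The 7-day WT and 14-day STING-KO libraries stood apart in cell markers, and the part of those markers in these differences was not tested.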

How the results depend on the processing

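Of 265 calls of a member in a comparison, all 265 kept their direction and side of the threshold under DESeq2's test and under the stricter filter, 263 under DESeq2's size factors, 263 under the legacy fit, 257 with no filter, 197 of 201 with only the libraries compared, and 23 of 23 with 7-day WT and 14-day STING-KO left out of the fit. None of these 265 reversed under any alternative run. DESeq2 called 1 member between cGAS-KO and STING-KO at 7 days, where edgeR called 0. Of all 19822 genes, DESeq2 called 145 higher and 118 lower there, and edgeR 17 higher and 15 lower. Relative to pan-neuronal genes, STING-KO against WT at 14 days fell from 23 to 15 members with only the libraries compared; size factors were not run there, since that fit replaces them.

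Leaving out each library in turn kept 1216 of 1316 checks of a call. The number of members called then ranged from 32 to 34 for cGAS-KO against WT at 7 days, 30 to 34 for STING-KO against WT at 7 days, 0 to 0 for cGAS-KO against WT at 14 days, 23 to 27 for STING-KO against WT at 14 days, 0 to 0 and 22 to 28 between the knockouts at 7 and 14 days, and 22 to 27, 17 to 24 and 29 to 31 over time in WT, cGAS-KO and STING-KO. The differences of effect ranged from 30 to 33 (cGAS-KO) and 29 to 32 (STING-KO). Relative to pan-neuronal genes the ranges were 12 to 15 (cGAS-KO, 7 days), 9 to 18 (STING-KO, 7 days, lowest without 7-day WT library 2) and 13 to 18 (STING-KO, 14 days, lowest without 14-day STING-KO library 1, and 14 without WT library 2). Of values that were not called, 3 changed sign: Gabra5 in 14-day STING-KO against WT ranged from -0.085 (without 14-day WT library 1) to 1.27, and the STING-KO difference of effect from -0.0231 (without 14-day WT library 1) to 0.914 for Grik1 and from -0.123 (without 14-day STING-KO library 2) to 0.841 for Grin2d.

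The titles number the libraries 1 and 2 in every group. The differences between libraries 1 and 2 correlated at -0.144 to 0.268 over 15 pairs of groups, above 0.1 in 5 of them. These correlations cannot tell whether equal numbers mark a pairing or a batch. With the number as a replicate block, 261 of 265 calls remained, and the members called were 35, 36, 0 and 25 against WT (cGAS-KO and STING-KO at 7 days, then at 14 days), 0 and 27 between the knockouts, 29, 24 and 29 over time, 34 and 31 for the differences of effect, and 16, 16 and 21 relative to pan-neuronal genes.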
